A study of Mus musculus with 17 samples.

Results

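The transcript described here is Arc, measured in the dissected hippocampus of 17 mice, with 1 animal on each expression array. It was taken as every probe set, the group of short probes that reads 1 transcript, whose platform annotation gives Arc as its single gene symbol. That rule found 1 probe set, 1418687_at, of 45037, and so 1 gene of the 18193 that were measured by probe sets of 1 symbol. Arc was chosen by its higher signal in the sleep-deprived animals of this series, so that difference between the groups is given as a description and without a test.

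The mice were adult males of the C57BL/6J strain, entered in the labels with the genotype C57/BL6 and as 2 months old, while the growth protocol allows 2 to 4 months. All of them lived singly under 12 h of light and 12 h of dark and were handled on each of 6 days beforehand, controls included. The 8 sleep-deprived animals were then kept awake by gentle handling in the home cage for 5 h, starting at about ZT 0 to 5 (ZT 0 is lights on). The 9 undisturbed animals stayed in their home cages over the same period. Tissue was taken at once, in alternation between the groups. As no animals were handled during those 5 h without losing sleep, the effects of handling and of wakefulness cannot be told apart. All values are log2 signals, so a difference of 1 stands for 2-fold, and RNA from the whole dissected tissue was hybridised, so that fewer cells with a transcript and less of it per cell cannot be told apart.

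Arc encodes an activity-regulated protein of the neuronal cytoskeleton. Its gene is an immediate early gene: synaptic activity acts through calcium and kinases on transcription factors already present in the nucleus, and Arc is transcribed without new protein synthesis. Its mRNA travels into dendrites and is translated near active synapses, where the protein works with the endocytic machinery to remove AMPA receptors. The protein derives from a retrotransposon Gag protein, can form capsid-like shells, and is needed for lasting memory in the hippocampus.

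In the undisturbed animals, numbered as in the labels, the Arc signal was 8.63 in animal 1, 9.28 in animal 2, 8.88 in animal 3, 9.06 in animal 4, 8.89 in animal 5, 9.33 in animal 6, 9.38 in animal 7, 8.64 in animal 8 and 8.60 in animal 9. Animals 1, 8 and 9 lay lowest and close together, and animals 2, 6 and 7 lay highest. In the sleep-deprived animals it was 9.64 in animal 1, 9.89 in animal 2, 9.43 in animal 3, 9.54 in animal 4, 9.33 in animal 5, 9.82 in animal 6, 9.68 in animal 7 and 9.70 in animal 8. The lowest of these was animal 5 and the highest animal 2. The groups overlapped by a narrow margin: 7 of the 8 sleep-deprived animals lay above the highest undisturbed animal, and 1 undisturbed animal lay above the lowest sleep-deprived one, by 0.05. Over all genes, the arrays of the groups did not overlap for 0.731%.

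The mean Arc signal was 8.97 ± 0.31 (SD, n = 9) in undisturbed and 9.63 ± 0.19 (SD, n = 8) in sleep-deprived animals, with medians of 8.89 and 9.66. The difference of 0.66 (SE 0.11) is a 1.58-fold higher signal after sleep deprivation, and it equals 2.53 times the SD within groups. All 8 sleep-deprived animals lay above the undisturbed mean. Among the 18193 genes, each read by its brightest probe set, 2 had a larger increase and 3 a larger difference in either direction. That rank depends on the probe sets read: Homer1 probe set 1436387_at, not the brightest of its gene, rose by 1.05 and was not counted. The values of Arc carried its choice and are not evidence about it.

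**Figure D1:**
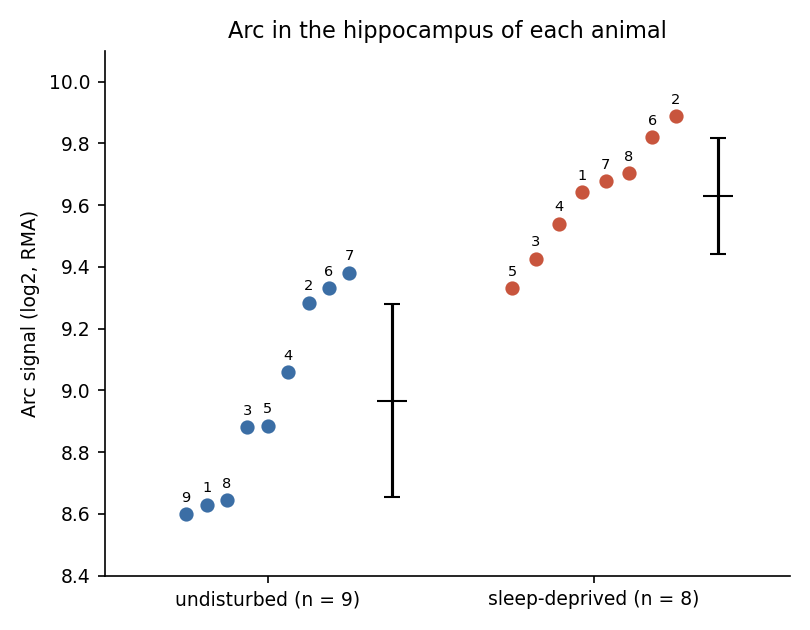
Arc signal (log2, vertical axis, not starting at 0) in each animal of the 2 groups, ordered by value and numbered by replicate; the bar beside each group is the mean ± SD. The undisturbed animals span 8.60 to 9.38 and the sleep-deprived animals 9.33 to 9.89, with animal 5 of the latter inside the undisturbed range.

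Arc also varied more than most transcripts among animals of the same group. Its pooled SD of 0.26 was larger than that of 99.0% of genes. Most of that spread was in the undisturbed animals, whose Arc values ranged over 0.78 against 0.56 after sleep deprivation. The undisturbed SD was 1.66 times the sleep-deprived one, where the median ratio over all genes was 0.89 and 7.44% of genes had a larger one. The difference in spread was not tested.

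Tissue composition and RNA quality were set beside Arc in each animal, since a dissection can carry neighbouring tissue. The mean of 13 of 14 listed choroid plexus markers ran from 5.41 to 6.84 in undisturbed and from 5.42 to 7.08 in sleep-deprived animals. It exceeded 6.5 in 5 animals, undisturbed 4 and 9 and sleep-deprived 3, 5 and 7, and was at most 5.93 in all others. Undisturbed 9 and sleep-deprived 5, both rich in these markers, had the lowest Arc of their groups. Undisturbed 4 and sleep-deprived 7, also rich in them, lay above their group means of Arc, by 0.09 and 0.05. Sleep-deprived 3 deviated from its group mean by -0.20. The correlation of Arc with the choroid plexus mean was -0.38 in undisturbed and -0.60 in sleep-deprived animals. In the limma test between groups described below 0 of the 13 markers passed, and 1 had an unadjusted p under 0.05. Over all genes 3.97% passed and 18.6% had an unadjusted p under 0.05, so these counts do not show that the groups were alike. All 13 markers were higher on average after sleep deprivation, with a median difference of 0.22. With that mean as a covariate the difference in Arc was 0.71, and without those 5 animals it was also 0.71.

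Other marker lists moved with Arc in 1 group or both. The mean of 7 excitatory neuron markers, the cell class in which Arc is chiefly made, correlated with Arc at 0.60 in undisturbed and 0.59 in sleep-deprived animals, ranging from 10.64 to 10.96 and from 10.49 to 10.91. The mean of 9 dentate gyrus markers correlated at -0.08 and 0.70, that of 7 astrocyte markers at 0.75 and -0.05, and that of 7 thalamus markers at 0.35 and -0.86. The mean of 6 oligodendrocyte markers, like the excitatory list, correlated positively in both groups, at 0.64 and 0.44. Of 6 endothelial markers, 2 fell after sleep deprivation, Tek by 0.26 and Slco1a4 by 0.32, both named after their values were seen, and the mean of the 6 differed by -0.13. Over all genes 2.73% were called lower. Among 6 CA1 markers 1 rose and 0 fell, where 1.25% of all genes were called higher. The mean of these CA1 markers differed by 0.01. The part of these tissues in the variation of Arc, and in the group differences below, was not tested. The hippocampal lists were well above the floor of the arrays, with CA1 marker means of 9.80 to 10.12 and dentate means of 8.04 to 8.48. RNA quality was read as the signal at the 3′ end minus that at the 5′ end of the array's Gapdh and actin controls, which grows as RNA degrades. It ran from 0.20 to 0.30 in 16 animals and was 0.42 in sleep-deprived 5, the animal with the lowest Arc of its group. The correlation of this measure with Arc was 0.40 in undisturbed and -0.54 in sleep-deprived animals. With this measure as a covariate the difference in Arc was 0.67.

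**Figure D2:**
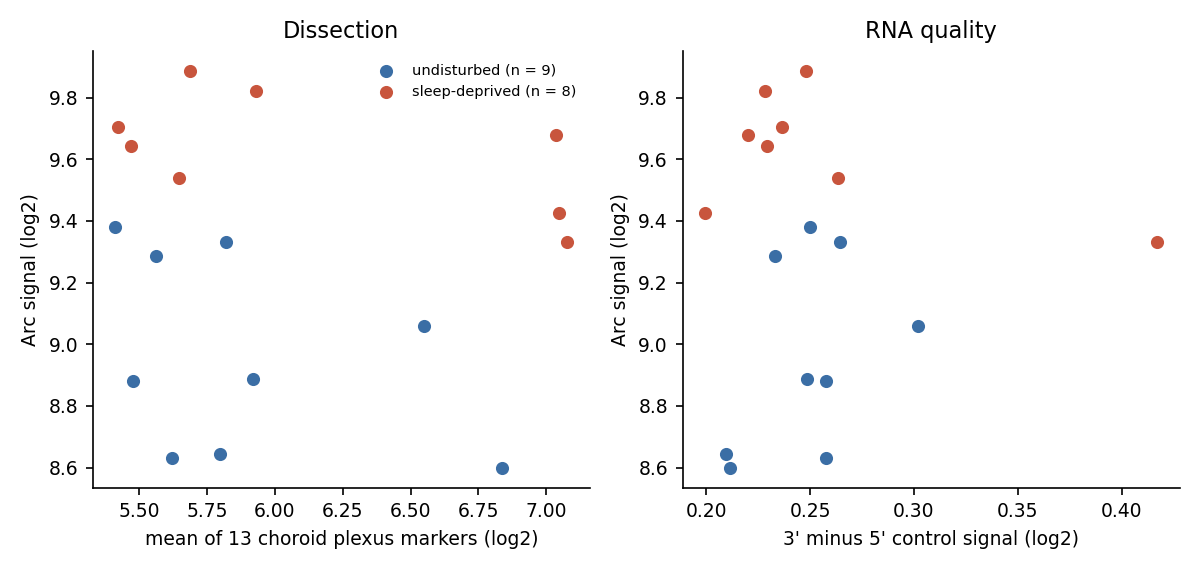
Arc signal (log2) of each animal against the mean signal of 13 choroid plexus markers (left) and against the 3′ minus 5′ control signal (right), undisturbed animals in blue and sleep-deprived animals in red. The 5 animals above 6.5 on the left belong to both groups, and sleep-deprived 5 stands alone at 0.42 on the right.

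Arc lies on chromosome 15 in the RefSeq gene table of assembly GRCm38.p6. Of the 5 annotated genes on each side, 7 were measured: Adgrb1 and Mroh4 on one side and Jrk, Psca, Them6, Slurp1 and Lypd2 on the other. Their differences between groups ran from -0.04 for Mroh4 to 0.06 for Slurp1. In the same limma test 0 of 7 passed, where 3.97% of all genes did, so the count says little about them. The smallest p among the 7 was 0.24 (adjusted 0.54) for Slurp1. Mroh4 correlated with Arc at 0.15 in undisturbed and 0.87 in sleep-deprived animals, and the other neighbours between -0.49 and 0.34 and between -0.26 and 0.62.

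To find transcripts that followed Arc from animal to animal, each gene was fitted in limma with its group mean and a slope on Arc's deviation from its group mean, which leaves the difference between groups out. At a Benjamini-Hochberg adjusted p of 0.05 over 18192 genes, 0 slopes were called (0%), and the smallest adjusted p was 0.83. An unadjusted p under 0.05 was found for 1008 genes, 5.54%, with a positive slope for 3.08% and a negative one for 2.46%. A share of 5% is what this threshold gives where no gene follows Arc. In undisturbed animals alone 884 genes had an unadjusted p under 0.05, in sleep-deprived animals alone 1085, and for the difference of slopes between the groups 1084, with 0 called in each fit and smallest adjusted p-values of 0.97, 0.63 and 0.65. The transcripts below are therefore described as the closest followers and not called.

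Nr4a1 and Dusp5 had the smallest slope p-values of all genes. Nr4a1 encodes an orphan nuclear receptor and is itself an immediate early gene, and Dusp5 encodes a nuclear phosphatase of the kinase ERK. The 250 bases before the start of each gene are shown, with those of Fos for comparison, because transcription of all these genes begins under activity-regulated factors. Capitals mark TGACG or its reverse complement CGTCA, the core of the site that CREB binds, and in Dusp5 also the CArG box, which serum response factor binds. They are RefSeq sequences of GRCm38.p6 on the plus strand, 5′ to 3′, at chr15:101266596-101266845 for Nr4a1, chr19:53528895-53529144 for Dusp5 and chr12:85473640-85473889 for Fos. A window of Arc itself was not used here.
Nr4a1: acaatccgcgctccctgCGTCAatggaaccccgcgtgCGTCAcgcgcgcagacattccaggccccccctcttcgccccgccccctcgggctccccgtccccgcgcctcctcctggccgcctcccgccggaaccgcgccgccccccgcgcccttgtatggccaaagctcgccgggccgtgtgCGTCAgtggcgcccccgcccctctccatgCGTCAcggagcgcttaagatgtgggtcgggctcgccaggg
Dusp5: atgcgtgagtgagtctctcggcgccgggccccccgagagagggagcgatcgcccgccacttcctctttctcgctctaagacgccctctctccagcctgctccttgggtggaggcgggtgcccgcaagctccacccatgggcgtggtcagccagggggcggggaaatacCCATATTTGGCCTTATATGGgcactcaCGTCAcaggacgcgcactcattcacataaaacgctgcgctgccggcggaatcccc
Fos: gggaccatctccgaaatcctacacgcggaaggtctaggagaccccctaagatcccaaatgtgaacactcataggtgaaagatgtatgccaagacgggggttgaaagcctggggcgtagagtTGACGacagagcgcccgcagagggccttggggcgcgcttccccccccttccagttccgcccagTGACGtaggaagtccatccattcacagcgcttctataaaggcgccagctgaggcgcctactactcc
Nr4a1 held TGACG 4 times over both strands. Of the 32851 promoter windows of this length, 17.8% held it at least 1 time and 0.137% at least 4 times. Dusp5 held 2 CArG boxes side by side and TGACG 1 time. At least 1 CArG box stood in 1.47% of windows and at least 2 in 0.0183%. Fos held TGACG 2 times, where 3.90% of windows held it at least 2 times, and no CArG box within these 250 bases. Per1, a further gene whose windows were read, held TGACG 1 time in each of 2 windows and no CArG box. The cut-offs for the shares equal the counts found in the windows shown, so the shares are a description only. The motifs searched, on both strands, were TGACG, the full palindrome TGACGTCA that contains it, the CArG box, GCGTGGGCG and TATAAA; a match describes the letters and not a site in use.

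Nr4a1 was 10.01, 10.11, 10.04, 9.95, 9.83, 10.29, 10.21, 9.85 and 9.79 in undisturbed animals 1 to 9. It was 10.31, 10.54, 10.28, 10.15, 10.18, 10.40, 10.50 and 10.49 in sleep-deprived animals 1 to 8. The undisturbed animals highest for Nr4a1, 6, 7 and 2, were the 3 highest for Arc, and the sleep-deprived animal highest for Nr4a1, 2, was the highest for Arc, while the groups overlapped. Its slope was 0.50 (SE 0.10) log2 units per log2 unit of Arc, with an unadjusted p of 6.9e-05 and an adjusted p of 0.83 in limma.

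Within undisturbed animals Nr4a1 correlated with Arc at Pearson's r = 0.82 (exact permutation p = 0.0084, adjusted 0.15) and Spearman's rho = 0.77 (exact p = 0.021, adjusted 0.26). Within sleep-deprived animals r was 0.81 (exact permutation p = 0.018, adjusted 0.17) and rho 0.83 (exact p = 0.015, adjusted 0.26). Without the 2 animals of each group farthest from its median Arc, r was 0.64 (n = 7) and 0.76 (n = 6). Both genes were read on the same arrays, so anything that raises neuronal RNA on an array is shared between them.

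Dusp5 ran from 7.80 to 8.18 in undisturbed animals, with a median of 7.96, and from 7.90 to 8.43 in sleep-deprived animals, with a median of 8.27. Sleep-deprived animals 3 and 5, at 7.90 and 8.01, lay within the undisturbed range, and the same animals were the 2 lowest of their group for Arc. Both carried much choroid plexus marker signal. Its slope on Arc was 0.47 (SE 0.10), with an unadjusted p of 0.00013 and an adjusted p of 0.83, and r was 0.90 in undisturbed and 0.80 in sleep-deprived animals. With the choroid plexus mean as a covariate the slopes of Nr4a1 and Dusp5 were 0.49 and 0.41, second and eighth by p. Without the 5 choroid-rich animals they were 0.49 and 0.40, at ranks 11 and 8.

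**Figure D3:**
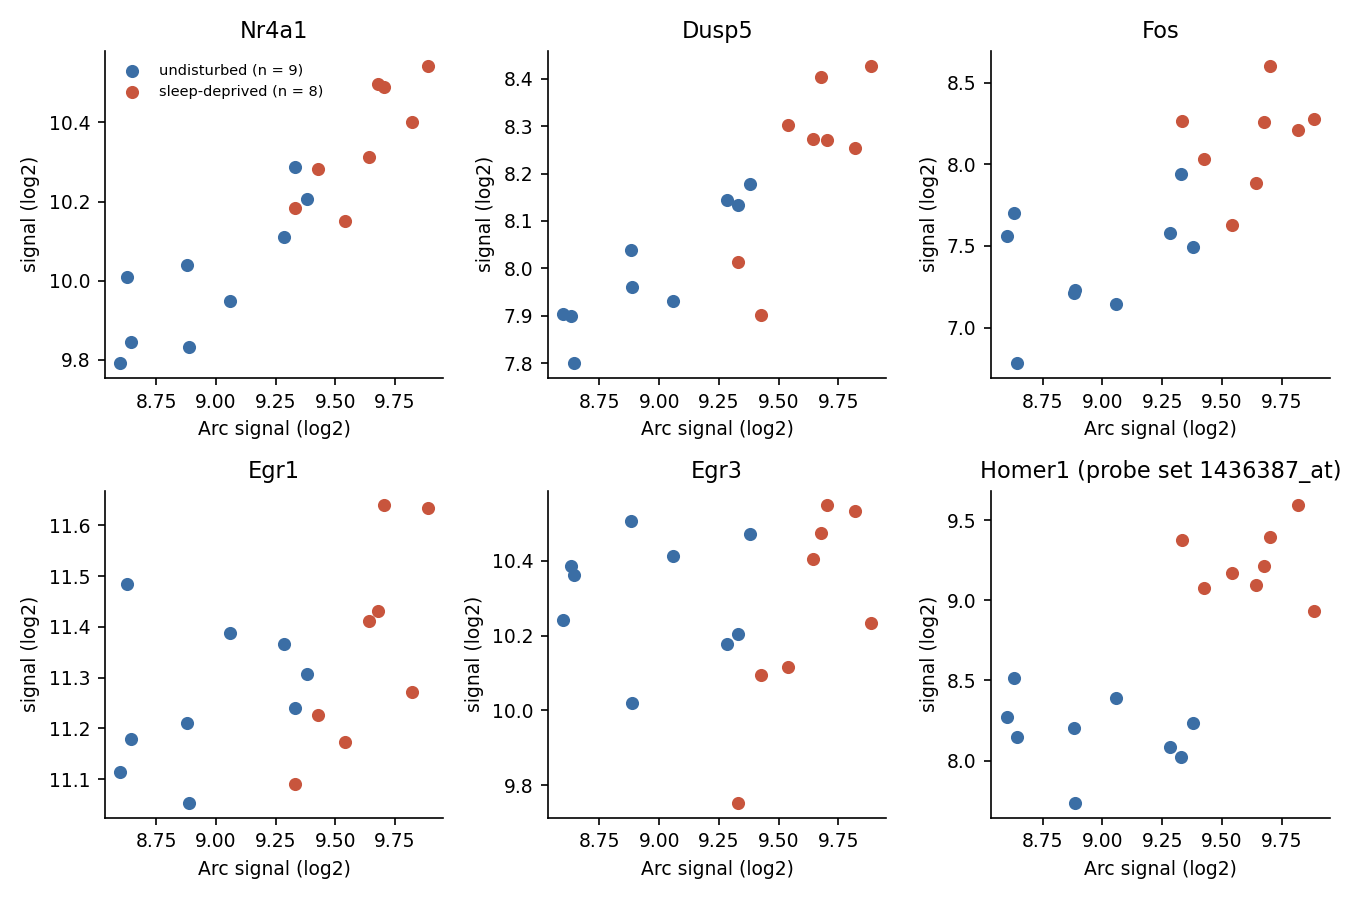
Signals (log2) of Nr4a1, Dusp5, Fos, Egr1, Egr3 and Homer1 probe set 1436387_at against the Arc signal (log2) of the same animal, undisturbed in blue and sleep-deprived in red. Nr4a1 climbs with Arc within both groups (r = 0.82 and 0.81), whereas the Homer1 probe set separates the groups and is flat within them (r = -0.26 and -0.02).

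Ranked by the smaller of the correlations in the 2 groups, the 10 named genes closest to Arc were Padi1, Chst7, Nr4a1, Dusp5, Mpped2, Gad1os, Rilpl2, Sufu, Sec14l1 and Ubald1. Padi1, a peptidylarginine deiminase, had r = 0.85 in undisturbed and 0.90 in sleep-deprived animals, over signals of only 4.12 to 4.37, low on arrays whose lowest value was 2.90. Chst7, a carbohydrate sulfotransferase, had r = 0.85 and 0.83. The smallest of the 10 was Ubald1, with r = 0.83 and 0.69. Of these 10, Nr4a1 alone passed the test of the group difference, and Padi1, Chst7, Sufu, Rilpl2 and Ubald1 differed between groups by at most 0.02 in size.

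Genes picked from all 18192 for a high r in 1 group tend to lie lower in the other by that choice alone. The values below therefore describe no effect of sleep deprivation. The 10 named genes with the highest r in undisturbed animals were Cypt12 (0.94), Gopc (0.92), Slc48a1 (0.92), Atf7ip2 (0.92), Srm (0.92), Cip2a (0.92), Fgf8 (0.90), Rcbtb2 (0.90), Dusp5 (0.90) and Gatad2a (0.90). Cypt12, Atf7ip2 and Fgf8 had low mean signals, of 3.67, 3.84 and 3.91. In sleep-deprived animals the r of Cypt12 was -0.17, of Rcbtb2 -0.51, of Srm, the spermidine synthase, 0.61, and of Dusp5 0.80. Of the 10, 6 were positive there, with a median of 0.35. The 100 genes highest in undisturbed animals, all above r = 0.80, had a median r of 0.03 in sleep-deprived animals and were positive in 54, where 42.9% of all genes were positive with a median of -0.08. Chosen the other way, the 100 highest in sleep-deprived animals had a median r of 0.09 in undisturbed animals. They were positive there in 58, where 53.0% of all genes were positive with a median of 0.03. As given above, 0 differences of slopes between the groups were called. Across 18192 genes, which are not independent replicates, the correlations in the 2 groups were themselves correlated at 0.09.

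**Figure D4:**
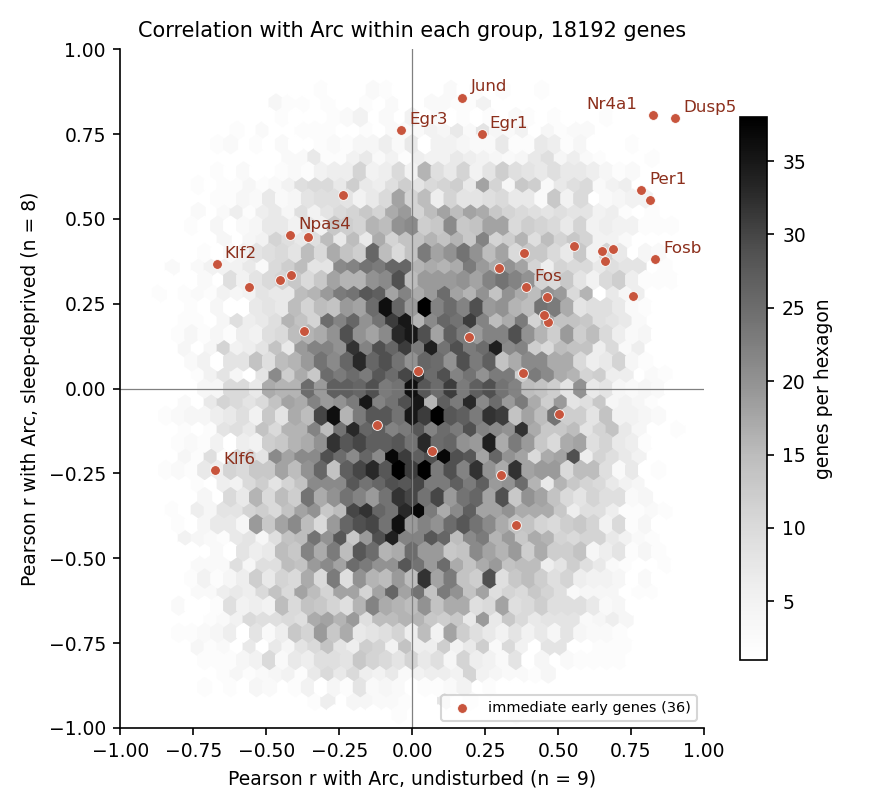
Pearson correlation of each of 18192 genes with Arc in undisturbed animals (horizontal axis) and in sleep-deprived animals (vertical axis); grey hexagons count genes and red points are the 36 measured immediate early genes. Nr4a1 and Dusp5 stand in the upper right corner, Fos near the middle (0.39 and 0.30), and Klf2 to the left (-0.67 and 0.37).

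The immediate early genes, transcribed in the first wave after activity as Arc is, were examined as a list of 38 without Arc, of which 36 were measured. In the limma fit of the group difference, 3.97% of all genes were called at an adjusted p of 0.05, 1.25% higher and 2.73% lower after sleep deprivation. Of the called genes 31.4% were higher, a share that was 46.3% after quantile normalization, 44.1% after cyclic loess and 18.6% after centring each array on its median. Of the 36, 10 rose, 0 fell and 26 did not pass. Their median difference was 0.11, against 0.00 over all genes, and 30 of 36 were positive.

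The largest increase in the list was in Fos, a subunit of the transcription factor AP-1. Fos ran from 6.78 to 7.94 in undisturbed animals (median 7.49) and from 7.63 to 8.60 after sleep deprivation (median 8.23), so the groups overlapped. The difference of 0.74 (SE 0.13, adjusted p = 0.0025) exceeds that of Arc in size, which was not tested, and Fos correlated with Arc at 0.39 in undisturbed and 0.30 in sleep-deprived animals (exact permutation p = 0.30 and 0.48). Fosb, also an AP-1 gene, rose by 0.29 (SE 0.07, adjusted p = 0.018), and the zinc-finger gene Klf2 rose by 0.50 (SE 0.09, adjusted p = 0.0029).

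The other genes of the list that rose, with their limma adjusted p-values, were Nr4a1 by 0.35 (0.0070), Dusp1 by 0.27 (0.014), Ier2 by 0.21 (0.016), Klf4 by 0.35 (0.019), Egr2 by 0.29 (0.021), Dusp6 by 0.24 (0.037) and Trib1 by 0.20 (0.038). Dusp1 and Dusp6, like Dusp5, encode phosphatases that switch off MAP kinases. Klf4, Dusp6 and Trib1 are named because the count is short, after their values were seen. Dusp5 had a difference of 0.23 and did not pass (adjusted p = 0.065). Without the 5 choroid-rich animals 2 of the 36 rose, Klf2 and Klf4, where 0.269% of all genes were called higher and 0.621% in either direction; 31 of 36 differences were then positive with a median of 0.13. Dusp6 missed the threshold without any 1 of 9 animals, undisturbed 1, 3, 4, 5 or 8 or sleep-deprived 1, 5, 6 or 8 (adjusted p up to 0.070), and Trib1 without undisturbed 1, 4, 5, 6 or 8 or sleep-deprived 1, 2, 3 or 7 (up to 0.083). With its probe sets averaged, Egr2 (adjusted p = 0.11) did not pass, nor did Trib1 (0.068). The Egr2 signal was low, with means of 4.48 in undisturbed and 4.76 in sleep-deprived animals.

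**Figure D5:**
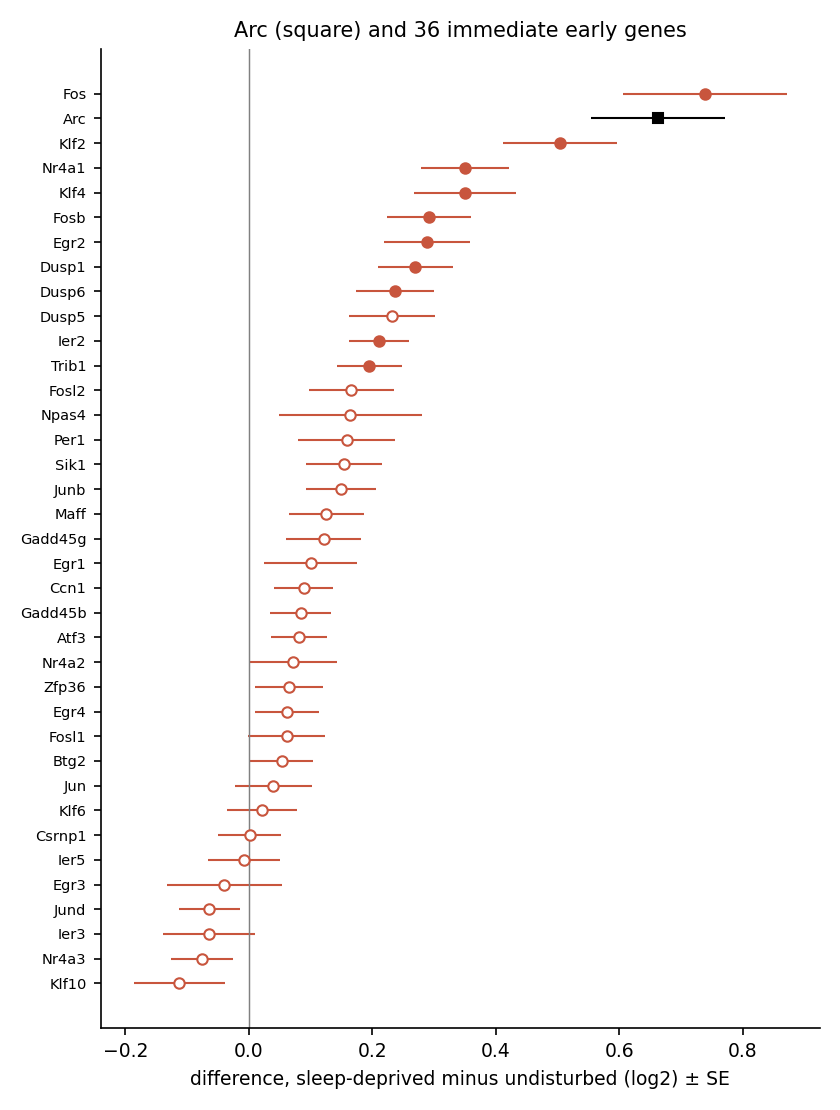
Difference between groups (sleep-deprived minus undisturbed, log2) ± SE for Arc (black square) and the 36 measured immediate early genes (red circles), in order of size; filled circles passed the limma test at an adjusted p of 0.05, and Arc was not tested. Arc, at 0.66, lies between Fos at 0.74 and Klf2 at 0.50.

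Within groups, the same list lay toward positive correlation with Arc. Its median r was 0.33 in undisturbed and 0.34 in sleep-deprived animals, against 0.03 and -0.08 over all genes. The r was positive in both groups for 21 of 36 (58.3%), against 24.1% of all genes, and the slope on Arc was positive with an unadjusted p under 0.05 for 10 of 36 and negative for 1, against 3.08% and 2.46% of all genes, with 0 called after adjustment. Such a share was not particular to immediate early genes, since 13 of 22 partners of the Arc protein (59.1%) and 7 of 7 excitatory neuron markers also correlated positively in both groups. Per1, a clock gene that is also induced by activity, had r = 0.78 and 0.58 and is named after its values were seen.

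Some genes of the list that rose with sleep deprivation ran against Arc among undisturbed animals. Klf2 and Klf4, which rose in the comparison of groups, had r = -0.67 and -0.36 with Arc in undisturbed animals and 0.37 and 0.45 in sleep-deprived animals. Egr1 and Egr3, zinc-finger factors that act on the Arc gene, differed between groups by 0.10 (adjusted p = 0.50) and -0.04, and had r = 0.24 and -0.04 in undisturbed animals but 0.75 and 0.76 in sleep-deprived animals. Npas4, a factor made only in response to neuronal activity, had r = -0.42 and 0.45. The difference of slopes between groups had 0 genes called, as given above, so none of these contrasts between groups held up.

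Exact permutation tests of r with Arc were made for 14 partner genes in each group, 28 in all. An unadjusted p under 0.05 was found for 7 by Pearson's r and 5 by Spearman's rho, and 0 passed after adjustment over the 28. The 7 were Fosb (r = 0.83, exact p = 0.011, adjusted 0.15), Nr4a1, Dusp1 (r = 0.65, exact p = 0.046) and Ier2 (r = 0.69, exact p = 0.044) in undisturbed animals and Nr4a1, Egr1 (r = 0.75, exact p = 0.033) and Egr3 (r = 0.76, exact p = 0.029) in sleep-deprived animals. The adjusted p was 0.19 for Dusp1, Ier2, Egr1 and Egr3. Spearman's rho was 0.72 for Fosb, 0.60 for Dusp1, 0.58 for Ier2, 0.79 for Egr1 and 0.74 for Egr3, with exact p-values of 0.037, 0.097, 0.11, 0.028 and 0.046.

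Without the 2 animals farthest from the median Arc, the r of Egr3 was 0.27, of Egr1 0.53, of Ier2 0.38, of Dusp1 0.44 and of Fosb 0.80. Leaving out such animals narrows the range of Arc, which by itself can lower r. The drop therefore cannot show that a relation rested on them. In the sleep-deprived group the animals left out were 3 and 5, the 2 lowest for Arc and both choroid-rich. Sleep-deprived 7, also choroid-rich, was kept, with Egr3 at 10.47. Sleep-deprived 5, the lowest for Arc, was also the lowest for Egr3 at 9.75. Leaving out sleep-deprived 2 instead, the highest for Arc, brought the r of Egr3 to 0.95 and its exact adjusted p to 0.017, the single correlation that passed with any 1 animal left out.

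The remaining partners had no correlation with Arc at an unadjusted p under 0.05 in either group. Junb, another AP-1 gene, had r = 0.38 in undisturbed and 0.40 in sleep-deprived animals. Bdnf, the neurotrophin that induces Arc translation and transcription, had r = 0.59 and -0.23. Tsc22d3, a glucocorticoid-induced gene that rose by 0.51 (adjusted p = 0.0033), had r = 0.08 and 0.03, and Cirbp, which encodes a cold-inducible RNA-binding protein and fell by 0.68 (adjusted p = 0.00016), had r = 0.07 and 0.42. Egr2 had r = -0.24 and 0.57.

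Homer1 encodes a scaffold of the postsynaptic density and was read by 6 probe sets. Probe set 1436387_at ran from 7.74 to 8.52 in undisturbed animals and from 8.93 to 9.59 after sleep deprivation, without overlap, a difference of 1.05 (SE 0.09, limma adjusted p = 7.3e-06 over all probe sets). It did not follow Arc within groups, with r = -0.26 and -0.02. Of the others, 1425671_at rose by 0.48 (SE 0.07) at low signal, and the remaining 4 differed by -0.01 to 0.09 and did not pass. In undisturbed and sleep-deprived animals, r with Arc was 0.57 and 0.32 for 1421768_a_at and 0.53 and 0.15 for 1425710_a_at. It was 0.35 and -0.40 for 1425671_at, -0.28 and -0.09 for 1437363_at, and 0.16 and -0.19 for 1439662_at.

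The receptors and kinases that carry synaptic activity to the Arc gene were measured for 19 of 25 listed genes. Of these 0 rose, 2 fell and 17 did not pass, with a median difference of -0.07. Over all genes 1.25% were called higher and 2.73% lower. Camk4, a nuclear kinase that phosphorylates CREB, fell by 0.27 (SE 0.05, adjusted p = 0.0033), but the mean of all its probe sets did not pass (adjusted p = 0.22). Adcy8, a calcium-stimulated adenylyl cyclase, fell by 0.41 (SE 0.10, adjusted p = 0.026), and missed the threshold without undisturbed 4 or sleep-deprived 2, 6 or 7, with an adjusted p up to 0.056. Without the 5 choroid-rich animals neither passed (adjusted p = 0.093 for Camk4 and 0.080 for Adcy8), where 0.621% of all genes were called. Their correlations with Arc were -0.03 and 0.16 for Camk4 and 0.16 and -0.61 for Adcy8.

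Transcription factors and chromatin proteins that act on the Arc gene were measured for 21 of 23, of which 4 rose, 1 fell and 16 did not pass. The shares over all genes were 1.25% higher and 2.73% lower. Elk1, a partner of serum response factor, rose by 0.31 (SE 0.05, adjusted p = 0.0017). Crem and Creb1, of the CREB family, rose by 0.31 (adjusted p = 0.0070) and 0.18 (adjusted p = 0.019), and the histone deacetylase gene Hdac4 rose by 0.33 (adjusted p = 0.0024). Hdac3, named after its value was seen, fell by 0.22 (adjusted p = 0.020). Of these 5, Elk1 had r = 0.62 with Arc in undisturbed and -0.17 in sleep-deprived animals, and Crem had 0.05 and -0.45. Without the 5 choroid-rich animals, Hdac4 kept its call, and Elk1 (adjusted p = 0.068), Crem (0.11), Creb1 (0.20) and Hdac3 (0.21) did not. In that fit 0.621% of all genes were called.

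Of 25 delayed plasticity genes, which follow the first wave, all were measured: 3 rose, 0 fell and 22 did not pass, with a median difference of 0.00. These counts depend on the probe set read. Homer1 was among the 22 because its brightest probe set, 1437363_at, differed by 0.02, while 1436387_at and 1425671_at rose by 1.05 and 0.48. Among all genes 1.25% were called higher and 2.73% lower. Inhba, a subunit of activin, rose by 0.28 (SE 0.06, adjusted p = 0.011) and Gpr3, an orphan receptor, by 0.19 (SE 0.04, adjusted p = 0.016). Cdkn1a, a cell-cycle inhibitor, rose by 0.23 (adjusted p = 0.048), and missed the threshold when any 1 animal other than undisturbed 5 and sleep-deprived 6 and 8 was left out (adjusted p up to 0.088). Without the 5 choroid-rich animals none of the 3 passed (adjusted p = 0.14 for Inhba, 0.22 for Gpr3 and 0.42 for Cdkn1a), where 0.621% of all genes were called. The correlations of Inhba with Arc were 0.48 and 0.09, and those of Gpr3 -0.16 and -0.48.

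Proteins that bind, carry, translate or degrade Arc mRNA were measured for 23 of 26 listed genes, of which 1 rose and 0 fell. With 1 call the count says little about the list, since 3.97% of all genes were called in either direction. Upf2, a core factor of the nonsense-mediated decay that limits Arc mRNA, rose by 0.31 (SE 0.04, adjusted p = 0.00029), higher than the undisturbed mean in 8 of 8 sleep-deprived animals, and kept its call in every setting run. Its correlation with Arc was 0.00 in undisturbed and -0.23 in sleep-deprived animals. Eef2k, the kinase of elongation factor 2, had a difference of -0.19 and did not pass (adjusted p = 0.062).

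Partners of the Arc protein, among them endocytic proteins and AMPA receptor subunits, were measured for 22 of 23, and 0 rose or fell in limma, with 3 at an unadjusted p under 0.05. Over all genes 3.97% were called, and 18.6% had an unadjusted p under 0.05. Wasf1, a regulator of actin, had a difference of -0.16 (adjusted p = 0.14) and Ap2m1, a subunit of the endocytic adaptor AP-2, one of -0.10 (adjusted p = 0.16). The median r of the list with Arc was 0.24 in undisturbed and 0.39 in sleep-deprived animals. Of the ubiquitin and kinase genes that set the life of the Arc protein 7 of 8 were measured, and 0 passed in limma, with 0 at an unadjusted p under 0.05. Gsk3a, a kinase that marks Arc for degradation, had a difference of -0.07 (adjusted p = 0.42), and Psmd4, a proteasome subunit, one of -0.06 (adjusted p = 0.50).

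The other genes of retrotransposon Gag origin, relatives of Arc by descent of their coding sequence, were measured for 14 of 21. Of these 0 rose, 1 fell and 13 did not pass, and the median difference was -0.07. Of all genes 3.97% were called in either direction, and 0.621% without the 5 choroid-rich animals. Zcchc12 fell by 0.18 (SE 0.05, adjusted p = 0.041), and missed the threshold without any 1 of 10 animals, undisturbed 1, 2, 4, 6 or 9 or sleep-deprived 1, 2, 3, 6 or 7 (adjusted p up to 0.081) and without the 5 choroid-rich animals (0.32). Rtl3 had a difference of -0.21 and did not pass (adjusted p = 0.051). Arc correlated with a relative positively in both groups for 2 of 14 genes (14.3%), against 24.1% of all genes.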

How the data were processed

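Hippocampal RNA of 17 mice was measured on Affymetrix whole-genome mouse arrays, and groups and replicate numbers came from the sample labels. The values deposited by the authors were log2 signals, for which the submitters' processing notes name RMA and affy. Their range of 2.90 to 14.8 fits base 2, which no source states, and software versions are not given. Because RMA equalises the distributions of arrays, a shift common to most transcripts is removed, and differences at low signal are compressed. Precision is limited by the number of arrays.

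The 64 control probe sets were left out. Of the other 45037, 34945 had 1 gene symbol, 932 several and 9160 none. The RefSeq table, matched by Entrez identifier, held 34741 of them and changed 0 symbols, and each gene was read by its brightest probe set. Group differences and slopes on Arc were fitted with limma 3.58.1 (lmFit, eBayes) in R 4.3.3, with Benjamini-Hochberg adjustment over all genes. The slope fits were tested on simulated data. Correlations were tested with exact two-sided permutation over pairings. Promoter windows were RefSeq's, by symbol, and 3 are shown.

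Arc and the gene lists were chosen with earlier results of these data known. Genes were named by a rule: Arc, the 14 partner genes, up to 4 called members of each list (or the 2 with the smallest p where fewer than 2 were called), the 10 closest and 5 most opposite followers in both groups, the 10 closest in undisturbed animals, the measured neighbours and the Homer1 probe sets. Clone and predicted names were skipped. The alternatives were quantile normalization, cyclic loess, median centring, covariates for choroid plexus markers and RNA quality, a replicate block, array weights, a filter at a mean signal of 6, other uses of probe sets, eBayes options, ranks of Arc, and each array left out in turn. Leaving out the 5 choroid-rich arrays was added after seeing the data.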

Additional observations from a re-analysis of the deposited data

Results flagged for a closer look

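Among 90 sets of values checked for an animal far from the rest of its group, 2 had one, where chance gives about 1 in 20 groups. The 3′ minus 5′ control signal of sleep-deprived animal 5 was 0.42, with the next highest of its group at 0.26. It was also the animal with the lowest Arc and the highest choroid plexus mean of its group. Homer1 probe set 1437363_at was 11.26 in undisturbed animal 1, with the next at 11.08. Arc itself had no such animal in either group.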

How the results depend on the processing

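The difference in Arc kept its direction in all 26 alternatives, from 0.62 to 0.71. No slope on Arc was called in any setting, and the ranks of Nr4a1 and Dusp5 among slopes, 1 and 2 as reported, fell to 9 and 20 without sleep-deprived animal 2. The count of immediate early genes that rose, 10, was 8 to 11 in the planned settings and 8 to 10 with 1 animal left out, and it was 2 without the 5 choroid-rich animals; the cause was not tested. The count of single correlations that passed, 0, was 0 to 1 with 1 animal left out. The slope of Rcbtb2 turned to -0.020 with ranks of Arc.

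With the replicate number as a block, the difference in Arc was 0.62, 8 immediate early genes rose and 0 slopes were called. The slopes of Nr4a1 and Dusp5 were then 0.36 and 0.41, at ranks 1443 and 1421, and Creb1 (adjusted p = 0.059), Fosb (0.051), Dusp6 (0.051), Cdkn1a (0.075) and Zcchc12 (0.063) missed the threshold. Whether arrays of the same number deviated together was not tested: 3 of 8 pairs correlated above 0.1, with a range of -0.16 to 0.39, and 2 undisturbed arrays correlated best with their own number.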

Other observations

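Some transcripts ran opposite to Arc within both groups. Ranked by the larger of the correlations in the 2 groups, the 5 named genes most opposite to Arc were Clnk (r = -0.83 in undisturbed and -0.79 in sleep-deprived animals), Fgd5 (-0.74 and -0.74), Rars2 (-0.73 and -0.75), Ddx60 (-0.72 and -0.77) and Commd4 (-0.81 and -0.72). Fgd5 encodes an exchange factor of endothelial cells and Rars2 the mitochondrial arginyl-tRNA synthetase. Their limma slopes had adjusted p-values of at least 0.83, and the group difference of none of the 5 passed, the smallest adjusted p being 0.27 for Clnk. The mean of 6 endothelial markers correlated with Arc at -0.01 in undisturbed and -0.46 in sleep-deprived animals.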
